A study of Mus musculus with 6 samples.

Results

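The genes described here encode the contractile apparatus of striated muscle: the thick and thin filaments of the sarcomere, the Z-disc and M-band that anchor them, and the calcium, energy and turnover proteins of the fibre. They are a list of 42 gene symbols, matched by exact name to the first column of the counts table, and 42 of 42 were found among its 49492 genes. Of these, 41 passed the filter on low counts, as did 19284 genes in all. Myl2, the slow regulatory light chain, did not pass, with estimated counts of 5, 0 and 7 in the control libraries and 15, 9 and 2 in the deletion libraries.

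Poly(A) RNA was sequenced from palatal shelves, the paired outgrowths of tissue that fuse into the palate, of C57BL mice on embryonic day E14.5. Control libraries, 3 in all, are columns 212, 213 and 220 of the table and came from Prmt1 fl/fl embryos, and the 3 deletion libraries (208, 211 and 221) from Wnt1-Cre; Prmt1 fl/fl embryos. Both groups carry the floxed Prmt1 alleles and differ by the Cre driver, and no group carries Wnt1-Cre without them. Wnt1-Cre acts in neural crest cells and their descendants, among them the palatal mesenchyme, whereas craniofacial skeletal muscle is known to descend from mesoderm. Nothing in the labels says that each library is a separate embryo, so p-values measure only the spread between these libraries. Prmt1, which encodes a major arginine methyltransferase, fell by 0.27 ± 0.05 (log2; edgeR adjusted p = 0.0113), from 258, 249.7 and 246 CPM in control to 201, 205.5 and 217 CPM in deletion libraries. Library totals ranged from 44919889 to 50022829 estimated counts. Throughout, values are CPM, estimated counts relative to library size after scaling by the trimmed mean of M-values (TMM), library values are given in the order 212, 213, 220 for controls and 208, 211, 221 for deletion, and fold changes are log2, deletion minus control, with their SE and n = 3 per group.

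A sarcomere shortens when myosin heads of the thick filament pull on actin of the thin filament, after calcium binds troponin C and moves the troponin and tropomyosin complex off the myosin sites. Most of these proteins exist as forms encoded by separate genes: embryonic and neonatal forms that forming muscle expresses early, and slow and fast forms that come to mark fibre types. Muscle of the soft palate forms in the palatal shelves, and sarcomere genes are known to be driven by MyoD family factors at E-boxes, by MEF2 and by serum response factor at CArG boxes.

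Promoter entries of RefSeq (GRCm38.p6) matched 34 members, 39 entries in all, and the 250 bases before each start were searched on both strands. The E-box CAGCTG, which also counts as a CANNTG, was in 46.2% of the members' promoters and in 13% of all 32851 promoters of that length. The wider CANNTG was in 87.2% against 66.2%, the MCAT element CATTCC in 23.1% against 12.6%, the CArG box in 15.4% against 1.47% and the MEF2 site in 15.4% against 2.92%. A match is a description of letters, not a site in use. No promoter entry was matched for Tnnt3, Tnni2, Neb, Myom2, Actn3, Tcap, Myoz1 or Xirp1. Printed 5′ to 3′ on the gene's own strand are the actin genes Acta1 (chr8:123894776-123895025, minus strand) and Actc1 (chr2:114052876-114053125, minus strand), which both hold a CArG box, Klhl41 (chr2:69669870-69670119, plus strand), which holds an E-box and a MEF2 site, and Ckm (chr7:19410844-19411093, plus strand), which holds an E-box although its level overlapped between the groups. Capitals mark matches to CAGCTG, the CArG box and the MEF2 site.
Acta1: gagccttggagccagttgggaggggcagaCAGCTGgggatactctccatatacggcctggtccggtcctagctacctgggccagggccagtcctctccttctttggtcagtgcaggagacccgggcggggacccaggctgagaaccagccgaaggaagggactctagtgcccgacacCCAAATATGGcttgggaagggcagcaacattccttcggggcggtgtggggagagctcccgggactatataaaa
Actc1: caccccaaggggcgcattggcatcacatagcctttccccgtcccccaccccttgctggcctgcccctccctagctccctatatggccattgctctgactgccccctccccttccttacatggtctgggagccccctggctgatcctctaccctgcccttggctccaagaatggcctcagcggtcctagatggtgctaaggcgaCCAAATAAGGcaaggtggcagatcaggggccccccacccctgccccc
Klhl41: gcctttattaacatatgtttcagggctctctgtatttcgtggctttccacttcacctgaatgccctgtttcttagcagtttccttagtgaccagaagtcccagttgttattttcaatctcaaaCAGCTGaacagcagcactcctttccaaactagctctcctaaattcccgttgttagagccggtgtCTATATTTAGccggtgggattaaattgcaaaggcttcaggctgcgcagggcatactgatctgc
Ckm: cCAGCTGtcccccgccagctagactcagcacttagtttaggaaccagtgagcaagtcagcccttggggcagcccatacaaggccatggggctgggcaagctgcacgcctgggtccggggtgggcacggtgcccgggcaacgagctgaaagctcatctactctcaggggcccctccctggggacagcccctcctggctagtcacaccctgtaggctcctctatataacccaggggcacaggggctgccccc

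Most sarcomere genes were higher in the Prmt1 deletion libraries: the log2 fold change was above 0 for 40 of 41, and its median by place ran from 0.99 for the M-band and titin to 1.25 for turnover and assembly, a difference that was not tested. Of the 41 tested, 27 rose and 0 fell (edgeR quasi-likelihood test, Benjamini-Hochberg adjusted p under 0.05), where 3.65% of all genes tested rose. No member fell with DESeq2 or limma voom either. The members' median log2 fold change was 1.08, with quartiles of 0.99 and 1.19 and a range from -0.39 (Myl3) to 1.42 (Mybph), beside a median of -0.00013 and quartiles of -0.15 and 0.13 over all genes. In 37 members every deletion library lay above every control, as it did in 14.1% of all genes. The 4 whose groups overlapped were Myl3, Myoz1, Ckm and Eno3. In bulk tissue, more muscle cells and more RNA per muscle cell cannot be told apart.

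Summed over the 41 genes, the controls held 943, 897 and 972 CPM and the deletion libraries 1926, 2530 and 1512 CPM. The number of calls varied with the libraries compared. Leaving out control 213 lowered the count of members called from 27 to 10 (1.01% of all genes rose then), and leaving out deletion 221 raised it to 35 (5.28% of all genes). The count was 16 without control 212 (2.47% of all genes rose) and 16 without deletion 208 (1.52%), 21 without control 220 (3.37%) and 26 without deletion 211 (2.02%), while the members' median log2 fold change stayed between 0.89 (without deletion 211) and 1.25 (without deletion 221). Controls 212 and 213 had low Xist (15.5 and 16 CPM), the RNA of the inactive X chromosome, and the other 4 libraries had 3384 CPM or more. With that difference as a covariate 2 members were called, Atp2a1 and Tnnc1 (edgeR adjusted p = 0.0452 for each), where 0.337% of all genes rose. The members' median log2 fold change was 1.07 with the covariate and 1.06 against control 220 alone. The summed level of control 220 was close to that of the other controls.

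Members that did not pass were not all far from it. Myh3, Myh8, Mylpf, Acta1, Neb and Ttn passed with DESeq2 (adjusted p from 7.87e-05 to 0.00914), with limma voom (0.0091 to 0.0293) and with edgeR's robust option off (0.00672 to 0.0175), at log2 fold changes from 0.96 to 1.25. Myom1 and Tnni2 also passed with DESeq2 (adjusted p = 0.000319 and 0.0015). Without deletion 221, edgeR called Myh3, Mylpf, Acta1, Neb, Ttn, Myom1, Tnni2 and Tnnt3 (adjusted p from 0.000345 to 0.0307), and without deletion 211 it called Myh3, Myh8 and Acta1 (0.0036 to 0.0278). Other calls were lost under such settings. Casq1 did not pass with limma voom (adjusted p = 0.0726) or with edgeR's robust option off (0.0562), nor Smpx with limma voom (0.0598). Without the filter on low counts, Myl1, Myl4 and Tnnt2 did not pass (edgeR adjusted p = 0.0538, 0.0652 and 0.0672).

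**Figure D1:**
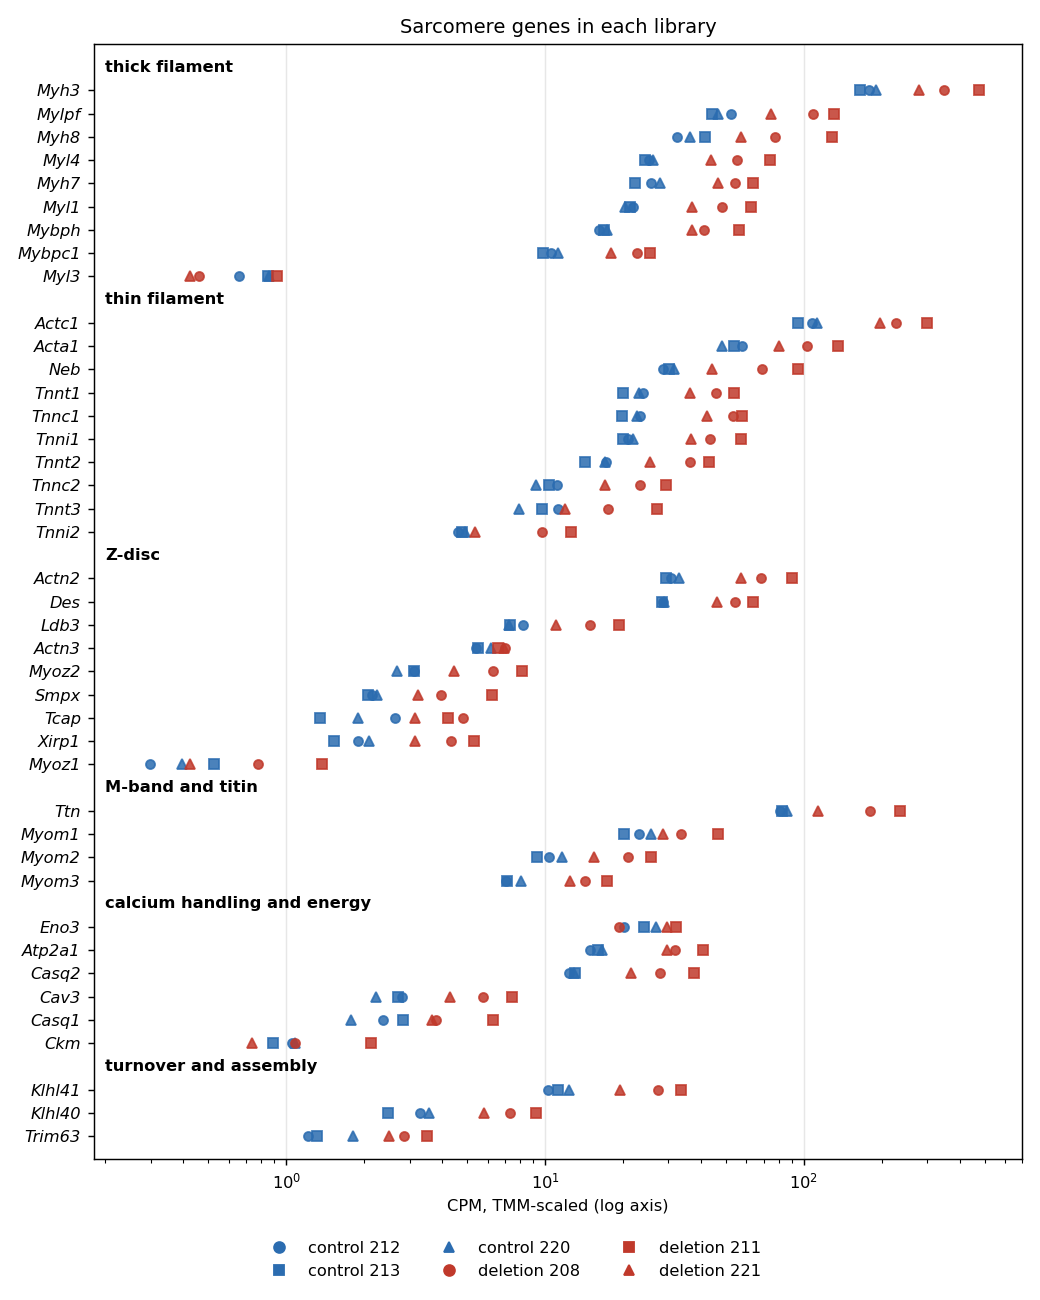
CPM (log axis) of the 41 tested sarcomere genes in each library, grouped by role; blue symbols are the 3 control libraries and red symbols the 3 deletion libraries. Red symbols lie to the right of blue in 37 genes, and the groups overlap for Myl3, Myoz1, Ckm and Eno3.

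The size of the difference varied among the deletion libraries in the same order for nearly every member. Deletion 211 was the highest library for 39 of 41 members (2800 of the 19284 genes tested), and the order 211, 208, 221 held for 38 of 41 (19.3% of all genes). The median ratio of deletion 211 to deletion 221 was 1.69 for the members and 0.997 over all genes. The median coefficient of variation was 8.76% among controls and 26% among deletion libraries for the members, and 8% and 8.47% over all genes. The exceptions to the order were Actn3, at 7.01, 6.6 and 6.92 CPM in the deletion libraries, Tcap, which was highest in 208, and Eno3, which was lowest in 208. The steepest gradients among deletion libraries were those of Myoz1, Ckm and Tnni2, where 211 exceeded 221 by 3.25, 2.89 and 2.35 times. Des, with controls at 28.6, 28.2 and 28.9 CPM, had the narrowest control spread of the members, 1.19%. The order 211, 208, 221 also held in the sums of other muscle structure genes and of myogenic, heart, palatal mesenchyme and erythroid markers. Erythroid markers summed to 3365, 3749 and 1698 CPM in deletion libraries and 3232, 3859 and 2953 CPM in controls. Sums of smooth muscle, tendon, cartilage, bone, epithelial, neuronal, Schwann cell, endothelial and macrophage markers did not follow it.

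**Figure D2:**
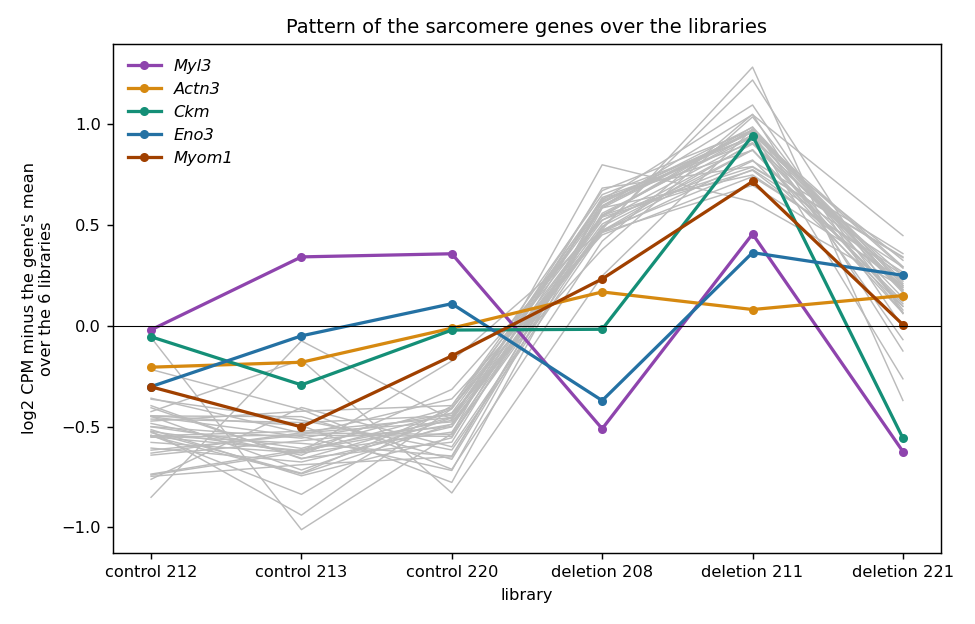
Log2 CPM of each of the 41 tested genes minus its own mean over the 6 libraries; each line is a gene, and lines join libraries only to let a gene be followed. Most grey lines are low in the 3 controls and highest in deletion 211. Coloured are Myl3, Actn3, Ckm, Eno3 and Myom1, which were lower without overlap when set against the members' own median. Myom1 stays close to the grey lines, and the grey lines of Myoz1 and Tcap leave the bundle in places. Ckm turned to -0.15 on the log2 scale without deletion 211.

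Thick filament genes were higher by a median of 1.13 on the log2 scale, and 5 of 9 tested rose. Myh3, the embryonic myosin heavy chain, had the highest CPM, at 178, 165.5 and 190.2 CPM in control and 349.8, 473.5 and 278 CPM in deletion libraries. The groups did not overlap and deletion 211 was well above 221, and the log2 fold change of 1.04 ± 0.21 did not pass (edgeR adjusted p = 0.0515). Myh8, the perinatal heavy chain, stood at 32.45, 41.55 and 36.3 CPM in control and 77.2, 128 and 57.4 CPM in deletion libraries. It was higher in every deletion library, most in 211, and did not pass (1.25 ± 0.35, adjusted p = 0.134). Myh7, the slow heavy chain also used in the heart ventricle, rose 2.18-fold, from 25.6, 22.3 and 27.8 CPM in control to 54.1, 63.9 and 46.8 CPM in deletion libraries (1.12 ± 0.12, adjusted p = 0.0016). The 3 deletion libraries of Myh7 were closer to each other than those of Myh3 or Myh8. Myh3 and Myh8 lie in the myosin cluster on chromosome 11 (GRCm38 positions 67078300 to 67102291 and 67277124 to 67308634), and Myh7 on chromosome 14. Their estimated counts were not whole in any library, so reads shared with similar heavy chains may be divided among them.

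Among the light chains, Mylpf, the fast regulatory chain and the one with the highest CPM, stood at 52.5, 44.1 and 46.65 CPM in control and 108, 131 and 74.5 CPM in deletion libraries. Every deletion library lay above the controls, but it did not pass (1.13 ± 0.23, edgeR adjusted p = 0.057). Myl1, the fast essential chain, rose 2.32-fold, from 21.9, 21.3 and 20.4 CPM in control to 48.25, 62.5 and 36.9 CPM in deletion libraries (1.22 ± 0.18, adjusted p = 0.0131). Myl4, the embryonic and atrial essential chain, rose 2.29-fold, from 25.25, 24.35 and 26.2 CPM in control to 54.96, 74.2 and 43.98 CPM in deletion libraries (1.19 ± 0.19, adjusted p = 0.0167). Both essential chains kept tight controls and the library order 211, 208, 221. Myl3, the slow and ventricular essential chain, stood at 0.656, 0.849 and 0.858 CPM in control and 0.4605, 0.920 and 0.424 CPM in deletion libraries. Its groups overlapped, with 208 and 221 below every control and 211 above them (-0.39 ± 0.39, adjusted p = 0.62). Myl3 was the only tested member below 0, it rests on 198 estimated counts over the 6 libraries, and its exons overlap by 95 bases those of Pth1r on the opposite strand, which fell by 0.55 on the log2 scale (adjusted p = 0.00103).

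The myosin-binding proteins rose. Mybph, a myosin-binding protein H of fast muscle, had the largest fold change of the members, 2.67-fold, from 16.2, 16.85 and 17.3 CPM in control to 41.02, 56.2 and 37.1 CPM in deletion libraries (1.42 ± 0.15, edgeR adjusted p = 0.00164). Its lowest deletion library was 2.14 times its highest control, and 1162 bases of its exons overlap Adora1 on the opposite strand, which was at 3.74 and 5.77 CPM in the group means (adjusted p = 0.0713). Mybpc1, the slow myosin-binding protein C, rose 2.1-fold, from 10.5, 9.80 and 11.2 CPM in control to 22.7, 25.5 and 18.04 CPM in deletion libraries (1.07 ± 0.12, adjusted p = 0.00108). Myh7, Mybph and Mybpc1 were called with each library left out in turn. Myl1 and Myl4 were not without control 212, 213 or 220 or deletion 208, with adjusted p up to 0.0757 and 0.086 and log2 fold changes no lower than 1.01 and 0.97.

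In the thin filament 6 of 10 genes rose, with a median of 1.12, and all 10 were higher in every deletion library. Actc1, the actin of heart and of early skeletal muscle, had the highest CPM and rose 2.29-fold, from 108, 94.8 and 113 CPM in control to 227, 299 and 198 CPM in deletion libraries (1.2 ± 0.16, edgeR adjusted p = 0.0135). Acta1, the actin of mature skeletal muscle, stood at 57.8, 53.7 and 48.5 CPM in control and 103, 136 and 80.2 CPM in deletion libraries. It was higher in every deletion library and did not pass (1.00 ± 0.21, adjusted p = 0.0611). Neb, nebulin, the ruler of thin filament length, went from 30 ± 1.5 to 69.5 ± 25.5 CPM (mean ± SD), with deletion 211 at 2.15 times 221 (1.21 ± 0.3, adjusted p = 0.101).

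Troponin T ties the complex to tropomyosin. Tnnt1, its slow form, rose 2.03-fold, from 23.96, 19.95 and 23.04 CPM in control to 45.9, 53.9 and 36.2 CPM in deletion libraries (1.02 ± 0.14, edgeR adjusted p = 0.00574). Tnnt2, the cardiac form that embryonic skeletal muscle also uses, rose 2.16-fold, from 17.2, 14.3 and 17.1 CPM in control to 36.3, 42.9 and 25.5 CPM in deletion libraries (1.11 ± 0.19, adjusted p = 0.0197). Tnnt3, the fast form, stood at 11.2, 9.76 and 7.94 CPM in control and 17.4, 26.99 and 11.9 CPM in deletion libraries. Its lowest deletion library was just above its highest control, and it did not pass (0.96 ± 0.32, adjusted p = 0.159).

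Troponin I holds the filament off in the absence of calcium. Tnni1, its slow form, rose 2.19-fold, from 20.96, 19.99 and 21.9 CPM in control to 43.6, 57.4 and 36.6 CPM in deletion libraries (1.13 ± 0.15, edgeR adjusted p = 0.00668). Tnni2, the fast form, stood at 4.63, 4.79 and 4.885 CPM in control and 9.71, 12.6 and 5.36 CPM in deletion libraries. Its controls were nearly equal and deletion 221 lay just above them (0.95 ± 0.27, adjusted p = 0.0776). Tnnc1, the slow and cardiac troponin C, had the smallest adjusted p of the members and rose 2.33-fold, from 23.3, 19.8 and 22.6 CPM in control to 53.4, 57.6 and 42.2 CPM in deletion libraries (1.22 ± 0.11, adjusted p = 0.000581). Tnnc2, the fast troponin C, rose 2.26-fold, from 11.1, 10.4 and 9.24 CPM in control to 23.3, 29.2 and 17.05 CPM in deletion libraries (1.18 ± 0.18, adjusted p = 0.0098). Tnnc2 exons, 700 bases long, share 592 bases with Ube2c on the opposite strand, a gene at 81.2 and 80.9 CPM in the group means. The strand setting of the counts is not given, and whether Ube2c reads enter the Tnnc2 values was not tested.

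Called with each library left out were Tnnt1, Tnni1 and Tnnc1. Tnnc2 was lost without control 213 (edgeR adjusted p = 0.0639), Actc1 without control 212 or 213 or deletion 208 (up to 0.0614), and Tnnt2 without control 212, 213 or 220 or deletion 208 (up to 0.0853), with log2 fold changes no lower than 0.98, 1.01 and 0.93. Troponin T and I genes lie in pairs in the mouse genome. On chromosome 7, Tnnt1 (4504570 to 4516382) lies 1922 bases from Tnni3 (4518305 to 4524229), the cardiac troponin I and no member of the list, which stood at 1.67, 1.62 and 1.94 CPM in control and 1.56, 1.12 and 1.76 CPM in deletion libraries, with overlapping groups (-0.23 ± 0.25, adjusted p = 0.651). On chromosome 1, Tnni1 and Tnnt2 lie 25364 bases apart and both rose. Tnni2 and Tnnt3, 54425 bases apart on chromosome 7, both had non-overlapping groups and did not pass.

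At the Z-disc 7 of 9 genes rose, with a median of 1.06. Actn2, the alpha-actinin that cross-links thin filaments in all striated muscle, had the highest CPM and rose 2.32-fold, from 30.7, 29.2 and 33.01 CPM in control to 68.4, 90.2 and 56.99 CPM in deletion libraries (1.22 ± 0.17, edgeR adjusted p = 0.0102). Actn3, the alpha-actinin of fast fibres, stood at 5.40, 5.50 and 6.18 CPM in control and 7.01, 6.595 and 6.92 CPM in deletion libraries. Its groups did not overlap, yet the difference was small and its 95% interval ran from -0.018 to 0.55 (0.27 ± 0.13, adjusted p = 0.255). Des, desmin, the intermediate filament that links Z-discs, rose 1.92-fold, from 28.6, 28.2 and 28.9 CPM in control to 54.3, 63.9 and 46.2 CPM in deletion libraries (0.94 ± 0.1, adjusted p = 0.00107).

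Among the smaller Z-disc proteins, Myoz2, the calsarcin of slow and cardiac muscle, rose 2.12-fold, from 3.12, 3.11 and 2.68 CPM in control to 6.29, 8.17 and 4.465 CPM in deletion libraries (1.09 ± 0.21, edgeR adjusted p = 0.0126). Myoz1, its fast counterpart, stood at 0.298, 0.525 and 0.396 CPM in control and 0.781, 1.38 and 0.424 CPM in deletion libraries. Deletion 221 of Myoz1 was within the control range, and it did not pass (1.08 ± 0.46, adjusted p = 0.197). Xirp1, an actin-binding repeat protein, rose 2.32-fold, from 1.89, 1.54 and 2.09 CPM in control to 4.345, 5.30 and 3.15 CPM in deletion libraries (1.22 ± 0.23, adjusted p = 0.0104). Ldb3, a PDZ-LIM protein that binds alpha-actinin, rose from 7.59 ± 0.55 to 15.1 ± 4.2 CPM (adjusted p = 0.0125). Tcap, which caps titin, rose from 1.96 ± 0.65 to 4.06 ± 0.84 CPM (adjusted p = 0.0341), and Smpx, a small muscle protein, from 2.15 ± 0.09 to 4.48 ± 1.59 CPM (adjusted p = 0.0244).

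Des alone of these was called with each library left out. Xirp1 was lost without control 213 (edgeR adjusted p = 0.0671), Actn2 without control 212 or 213 (up to 0.0615), and Ldb3 and Myoz2 without control 213 or deletion 208 (up to 0.0798 and 0.0662). Tcap was lost without control 213 or 220 or deletion 208 or 211 (up to 0.142), and Smpx in each such fit except that without deletion 221 (up to 0.115). Their log2 fold changes in these fits were 0.74 or more.

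Of the M-band genes and titin 2 of 4 rose, with a median of 0.99. Ttn, the giant spring that spans the sarcomere from Z-disc to M-band, had the highest CPM, at 81.2, 82.45 and 86.45 CPM in control and 181, 235 and 113 CPM in deletion libraries. Controls lay within 1.07 times of each other and deletion libraries within 2.08 times, and it did not pass (1.08 ± 0.29, edgeR adjusted p = 0.124). Myom3, a myomesin of some fibre types, rose 1.98-fold, from 7.07, 7.13 and 8.075 CPM in control to 14.2, 17.4 and 12.5 CPM in deletion libraries (0.98 ± 0.13, adjusted p = 0.0023), and was called with each library left out. Myom2, the M-protein of fast fibres, rose from 10.4 ± 1.2 to 20.7 ± 5.1 CPM (adjusted p = 0.013), but not without control 212 or 213 or deletion 208 (up to 0.0731, log2 fold change no lower than 0.8). Myom1, the myomesin common to all fibres, went from 23 ± 2.8 to 36.3 ± 9.4 CPM, a smaller difference (0.66 ± 0.19, adjusted p = 0.1). Part of its exons, 207 bases, overlaps Myl12a on the opposite strand, which stood at 227 and 218 CPM in the group means.

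Among the calcium and energy genes 4 of 6 rose, with a median of 1.04. Atp2a1, the calcium pump SERCA1 that refills the sarcoplasmic reticulum of fast fibres, rose 2.15-fold, from 14.9, 16.01 and 16.6 CPM in control to 31.9, 40.8 and 29.7 CPM in deletion libraries (1.11 ± 0.11, edgeR adjusted p = 0.000676). It was called with each library left out and with the Xist covariate, and 763 bases of its exons overlap Rabep2 on the opposite strand, which rose by 0.32 on the log2 scale (adjusted p = 0.0309). Casq2, the calcium store protein of slow and cardiac muscle, rose 2.26-fold, from 12.4, 13.03 and 12.98 CPM in control to 27.7, 37.7 and 21.5 CPM in deletion libraries (1.18 ± 0.19, adjusted p = 0.0139). Casq1, the fast form, rose 1.96-fold, from 2.36, 2.83 and 1.78 CPM in control to 3.78, 6.29 and 3.66 CPM in deletion libraries (0.97 ± 0.25, adjusted p = 0.0427). Casq1 was lost in every fit that left a library out except deletion 221 (up to 0.16, log2 fold change down to 0.68), and Casq2 without control 212 or 213 (up to 0.0754). Cav3, the muscle caveolin, rose 2.26-fold, from 2.80, 2.71 and 2.22 CPM in control to 5.75, 7.47 and 4.31 CPM in deletion libraries (1.18 ± 0.21, adjusted p = 0.00873), but reached adjusted p = 0.0502 without control 213.

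Both enzymes of energy supply had overlapping groups. Ckm, muscle creatine kinase, was low, at 1.05, 0.889 and 1.08 CPM in control and 1.08, 2.125 and 0.737 CPM in deletion libraries. Deletion 211 lay well above the controls, 208 barely above the highest of them and 221 below them all. Without deletion 211 the log2 fold change turned from 0.38 ± 0.37 (edgeR adjusted p = 0.61) to -0.15. Eno3, beta-enolase, stood at 20.2, 24.1 and 26.9 CPM in control and 19.3, 32.05 and 29.65 CPM in deletion libraries. Deletion 208 lay below every control (0.19 ± 0.21, adjusted p = 0.674).

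All 3 genes of turnover and assembly rose, with a median of 1.25. Klhl41, a Kelch adaptor of the sarcomere, had the highest CPM, rising 2.38-fold from 10.3, 11.2 and 12.4 CPM in control to 27.3, 33.65 and 19.4 CPM in deletion libraries (1.25 ± 0.19, edgeR adjusted p = 0.0118). Klhl40, which stabilises nebulin and leiomodin, rose 2.4-fold, from 3.30, 2.465 and 3.565 CPM in control to 7.31, 9.27 and 5.83 CPM in deletion libraries (1.26 ± 0.2, adjusted p = 0.00509). Trim63, the ubiquitin ligase MuRF1, rose from 1.44 ± 0.32 to 2.95 ± 0.51 CPM (adjusted p = 0.0241). Klhl40 was called with each library left out, Klhl41 was not without control 212 or 213 (up to 0.0711), and Trim63 was not without control 212 or 213 or deletion 208 or 211 (up to 0.116, log2 fold change down to 0.89).

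Members were also grouped by form rather than by place, and differences between the medians were not tested. Embryonic or neonatal forms had a median log2 fold change of 1.19 (3 of 5 rose), slow forms 1.1 (7 of 8), fast forms 1.08 (6 of 11) and genes shared between fibres or not assigned 1.05 (11 of 17). Those of the fast forms that did not pass, Mylpf, Tnnt3, Tnni2, Myoz1 and Actn3, had log2 fold changes from 0.27 to 1.13, and the embryonic forms that did not, Myh3 and Myh8, had 1.04 and 1.25. Passing the threshold in a larger share of slow forms is not a difference between forms, which the ratios within libraries address.

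**Figure D3:**
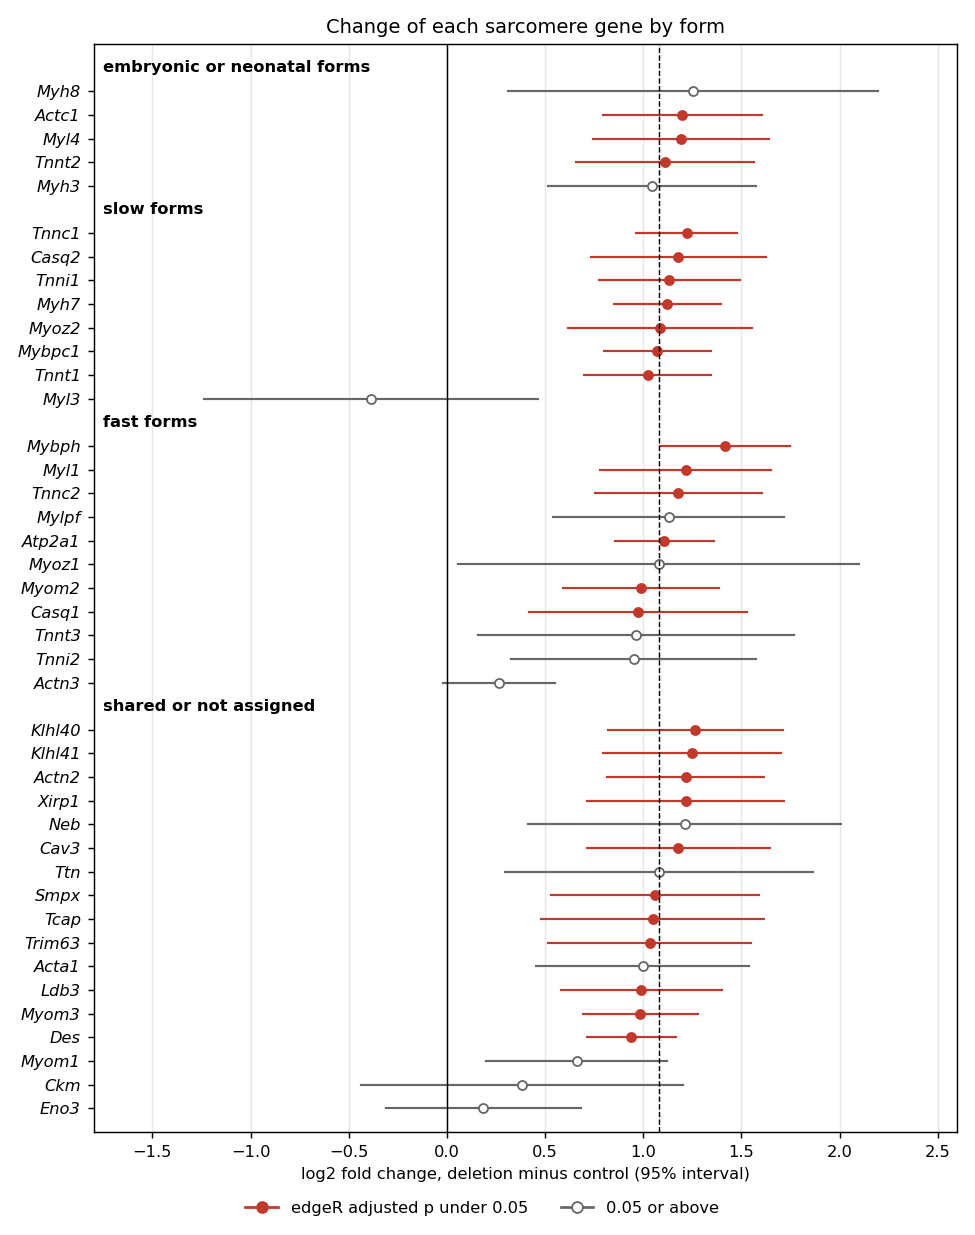
Log2 fold change (deletion minus control) of the 41 tested genes with 95% intervals, grouped by form; red filled points have an edgeR adjusted p under 0.05, open grey points do not, and the dashed line is the members' median, 1.08. The intervals of 37 genes lie above 0; those of Myl3, Actn3, Ckm and Eno3 include it, and Ckm changes sign without deletion 211.

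Ratios between forms of a protein were taken within each library, which frees them from library scaling. In 10 of 12 pairs the groups overlapped, and in these the deletion minus control difference of the log2 ratio lay between -0.063 and 0.24. For myosin, Myh7/Myh3 differed by 0.1, Myh8/Myh3 by 0.17 and Myh7/Myh8 by -0.063. The slow to fast ratios Tnnt1/Tnnt3, Tnni1/Tnni2, Tnnc1/Tnnc2, Casq2/Casq1 and Myoz2/Myoz1 differed by 0.11, 0.24, 0.064, 0.18 and 0.085, with overlapping groups in each. Embryonic against fast, Tnnt2/Tnnt3 differed by 0.18 and Myl4/Myl1 by -0.025. No ratio was computed for Myl2/Mylpf, since Myl2 was at 0 in control 213.

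Ratios of 2 pairs had no overlap. Myl3/Myl1 was -5.06, -4.65 and -4.57 on the log2 scale in the controls and -6.71, -6.09 and -6.44 in the deletion libraries, a difference of -1.65. Actn2/Actn3 was 2.51, 2.41 and 2.42 in the controls and 3.29, 3.77 and 3.04 in the deletion libraries, a difference of 0.92. For each, the exact two-sided permutation test gave p = 0.1, the smallest it can give with 3 libraries against 3, and 0.6 adjusted over the 12 pairs. Leaving out a library kept them between -1.82 and -1.5 and between 0.72 and 1.09. In both pairs the member that did not follow was the one at the lower level per length, Myl3 and Actn3.

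**Figure D4:**
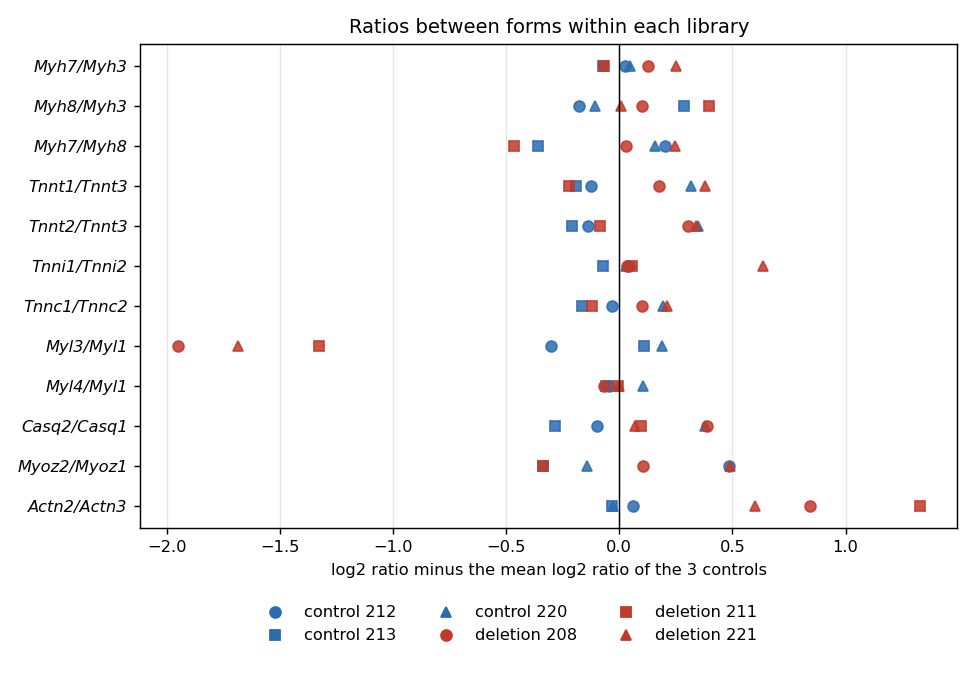
Log2 ratio between 2 forms of a protein in each library, minus the mean log2 ratio of the 3 controls, for 12 pairs; blue symbols are controls and red symbols deletion libraries. Red and blue overlap in 10 pairs; Myl3/Myl1 lies lower and Actn2/Actn3 higher in all 3 deletion libraries.

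Levels per length of exon showed which forms made up each family. In the controls, Actc1 held 71.4 CPM per kb, Mylpf 58.3, Acta1 36.9, Tnnc1 30.4 and Myh3 29.4, while Xirp1, Myoz1 and Ckm held 0.315, 0.315 and 0.367 CPM per kb. Of the myosin heavy chain CPM per kb, Myh3 made up 76.4% ± 1.5 in controls and 74.9% ± 0.7 in deletion libraries (SD, n = 3). Myh8 made up 12.2% ± 2 and 13.4% ± 1.8, and Myh7 10.4% ± 0.6 and 11% ± 1.3. The adult fast chains were scarce: Myh1 made up 0.797% and 0.632%, and Myh2 and Myh4 had at most 13.6 and 8.1 estimated counts in a library. Of these shares, those of Myh3, Myh8 and Myh7 overlapped between the groups.

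Slow forms led troponin T, troponin I, troponin C and calsequestrin per length. No shares were taken for the myosin light chains, of which the fast Mylpf held 58.3 CPM per kb in the controls. The embryonic Myl4 held 21, the fast Myl1 14.35 and the slow Myl3 0.738 CPM per kb. Tnnt1 made up 49.6% of troponin T in controls and 49.5% in deletion libraries, Tnnt2 30.6% and 32.2%, and Tnnt3 19.8% and 18.3%. Tnnc1 made up 67.5% ± 2.7 and 68.4% ± 2.5 of troponin C, and Casq2 80% ± 3.7 and 82% ± 1.8 of calsequestrin. In 2 families a share differed without overlap. Tnni1 was 69.7%, 68.4% and 69% of troponin I in the controls and 72.7%, 74.2% and 78% in the deletion libraries, while the cardiac Tnni3 was 8% ± 0.5 and 3.6% ± 1.6. Actn2 was 84.5%, 83.6% and 83.7% of the muscle alpha-actinins in the controls and 90.4%, 92.9% and 88.8% in the deletion libraries. Shares within a family are not independent, and these were not tested.

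Within each library, members were also set against the members' own median. Of 41, 30 overlapped between the groups on that scale and 11 did not. On the CPM scale 27.5% of all genes tested did not overlap in either direction. That share is not on the relative scale, on which no share over all genes was taken. The count of 11 is therefore not read as a result about the members. Of the 11, Mybph was higher by 0.34, Klhl41 by 0.16, Actn2 by 0.13, Myl1 by 0.13, Actc1 by 0.12 and Myl4 by 0.1 on the log2 scale. Myl3, Eno3, Ckm, Actn3 and Myom1 were lower, by -1.51, -0.89, -0.81, -0.79 and -0.42. These 5 are the genes coloured in the plot of the pattern over the libraries.

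Other genes of the sarcomere and of muscle structure, a list of 69 that are not members, followed in part. Of 59 tested, 27 rose and 1 fell, where 7.01% of all genes passed in either direction, and their median log2 fold change was 0.82. Those that rose had edgeR adjusted p from 0.00111 to 0.0491. Of this list 6 were called in either direction without control 213 (1.81% of all genes) and 37 without deletion 221 (9.45%). With the Xist covariate edgeR called 0 of them (0.669% of all genes). The groups within the list were made after its values were seen. Of 5 tested genes of the thick filament 2 rose. Of 15 tested genes of the Z-disc, M-band, costamere and others 5 rose and 1 fell. Their median was 0.34, and 7 had overlapping groups. Of 10 tested genes of the thin filament 3 rose. Lmod3, a nucleator of actin, rose by 1.41, and Tmod1, which caps its ends, by 1.08. Tropomyosins, which many cell types use, were split: Tpm2 rose by 0.39, while Tpm1 and Tpm3 stood at -0.085 and -0.15 without passing. Of 12 tested genes of excitation and calcium handling 7 rose: Ryr1, the calcium release channel, by 1.17, Cacna1s, the voltage sensor, by 1.21, Cacng1 by 1.04, Sypl2 by 0.99, Stac3 by 0.74, Jph2 by 0.6 and Jph1 by 0.44. The other 5 did not pass. Sln, Trdn, Srl and Jsrp1 stood at 1.003, 0.94, 0.59 and 0.54 (edgeR adjusted p = 0.0524, 0.213, 0.0536 and 0.297). Hrc, a calcium-binding protein of the sarcoplasmic reticulum, stood at -0.62 ± 0.19 (adjusted p = 0.106), with every deletion library below every control.

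Of 11 genes of chaperones, assembly and turnover 6 rose. The myosin chaperone Unc45b rose by 1.08, the lysine methyltransferase Smyd1 that acts with it by 1.21, and Trim55, a relative of Trim63, by 1.3. Hspb7 stood at -0.97 ± 0.36 (edgeR adjusted p = 0.139), with every deletion library below every control. Of 6 tested genes of fuel and oxygen supply 4 rose: Mb, myoglobin, by 1.29, Cox6a2, a muscle subunit of cytochrome oxidase, by 1.45, Pygm, glycogen phosphorylase, by 0.64, and Pgam2, phosphoglycerate mutase, by 0.62. Cox8b and Ampd1 had overlapping groups and stood at 0.92 ± 0.56 and 1.14 ± 0.43 (edgeR adjusted p = 0.376 and 0.148), and Ckmt2 was too low to test. The gene that fell was Cmya5, a large protein of the costamere, by 0.85 on the log2 scale (edgeR adjusted p = 0.00954), from 12.5, 17.6 and 17.3 CPM in control to 8.13, 10.3 and 7.88 CPM in deletion libraries. The adult fast chain Myh1 stood at 0.82 ± 0.37 (adjusted p = 0.241) and Fbxo32, the ubiquitin ligase atrogin-1, at -0.62 ± 0.17 (adjusted p = 0.0549).

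Genes that were no members but followed the members' mean pattern over the 6 libraries most closely, by root mean square difference of centred log2 CPM, were Synpo2l (0.039), Apobec2 (0.056), Myot (0.058), 1110002E22Rik (0.065) and Unc45b (0.079). Synpo2l, an actin-associated protein of the Z-disc, went from 19.5, 18.03 and 19.85 CPM in control to 38.6, 47.1 and 29.3 CPM in deletion libraries.

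The label of the list was checked against markers of muscle and of other cells. Of 9 tested genes of myogenic progenitors and differentiation, 3 rose: Myod1 by 1.13 and Myog by 1.23, both MyoD family factors, and Tmem8c, the fusion protein myomaker, by 1.23 on the log2 scale. Pax7, of muscle stem cells, stood at 0.88 ± 0.23 (edgeR adjusted p = 0.051), Myf5 at 0.71 ± 0.25 (adjusted p = 0.118), and Pax3, which neural crest also expresses, at -0.51 ± 0.15 (adjusted p = 0.0718). Groups overlapped for Pax3 and for the remaining genes: Mef2c, which other tissues also express, at -0.17 ± 0.08 (adjusted p = 0.249), Met at -0.18 ± 0.09 (0.253) and Myf6 at 0.59 ± 0.56 (0.602). The summed level of the 9 genes was 244 to 262 CPM in controls and 267 to 334 CPM in deletion libraries, of which Mef2c made up 148.4 to 169.4 CPM and 130 to 157 CPM. The 8 genes without Mef2c summed to 92.3 to 101 CPM and 137 to 177 CPM.

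Several defining heart genes were near 0. Nkx2-5 was at 0 in 5 libraries, Myl7 in 4 and Gata4 in 2, Nppa had at most 4 estimated counts, and Tbx20 had 4 to 51. Of 9 heart markers 4 were tested, with summed levels of 17.7 to 19.2 CPM in controls and 14.1 to 26 CPM in deletion libraries, and the smallest adjusted p was 0.445 (Hcn4). In the control and deletion means Ryr2 stood at 9.35 and 9.65 CPM, and Hcn4 at 4.57 and 3.89 CPM. Myh6, the heart's fast heavy chain and a close copy of Myh7, stood at 4.29, 2.02 and 2.57 CPM in control and 1.72, 10.6 and 0.960 CPM in deletion libraries, with deletion 211 apart from the rest. Reads of Myh6 and Myh7 may be hard to tell apart.

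Markers of other tissues also differed between the groups, and their part in the sarcomere differences was not tested. Cartilage markers summed to 253 to 384 CPM in controls and 603 to 677 CPM in deletion libraries, and 3 of 5 rose. All 3 tested bone markers were lower in every deletion library (4045 to 5496 CPM against 2537 to 3256 CPM; edgeR adjusted p from 0.0713 to 0.0813), and 3 of 4 epithelial markers fell (822 to 883 CPM against 482 to 669 CPM). Of the smooth muscle markers, Acta2 rose by 0.65 and Tagln fell by 1.31 on the log2 scale, with the 6 genes summing to 222 to 234 CPM and 210.0 to 236 CPM. Of the tendon markers, Scx, a tendon progenitor factor, rose by 0.86 and Fmod, a collagen-binding proteoglycan, fell by 0.47 on the log2 scale. Tnmd and Mkx had overlapping groups, at -0.072 and -0.086 (edgeR adjusted p = 0.903 and 0.542). The 4 genes summed to 74.5 to 81.6 CPM in controls and 72.6 to 78.4 CPM in deletion libraries. The 5 markers of palatal mesenchyme summed to 1719 to 1797 CPM in controls and 1823 to 1897 CPM in deletion libraries, with a smallest adjusted p of 0.104 (Pdgfra).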

How the data were processed

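Poly(A) RNA of 3 control and 3 deletion libraries was measured. The authors deposited a single table of 49492 genes whose values are estimated counts, not normalized: they are not whole numbers throughout (16 of the 42 members were whole to within 0.001 in every library and 9 in none). The submitters' processing notes name STAR 2.4.1d, CASAVA 1.8.2, Partek and the build mm10. How reads were counted, with which annotation and strand setting, is not given in the sources used here, so sense and antisense reads cannot be told apart. Exons of 15 members overlap a gene on the opposite strand and 0 a gene on the same strand. Column names give the group of a library but not which labelled sample it is. Rows without a gene name: 0.

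Counts were rounded, genes kept by filterByExpr (minimum count 10, minimum total 15), libraries scaled by TMM, and all 19284 genes fitted together in edgeR 4.0.16 (R 4.3.3; robust glmQLFit and glmQLFTest, no covariates), with Benjamini-Hochberg adjustment, a threshold of 0.05 and 95% intervals. Each SE was taken as the log2 fold change over the root of the F statistic. The code was tested on simulated data. Library totals of 44919889 to 50022829 make 1 CPM about 45 to 50 counts. Ratios between forms used an exact two-sided permutation test over libraries; one planned ratio is not reported here. Lengths are unions of exons of protein-coding transcripts in the GENCODE M21 basic set (GRCm38, the assembly mm10 names), as are gene coordinates; promoters are RefSeq's, GRCm38.p6.

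The members and gene lists were chosen with earlier results of these data known. All members are named; library values are given for families compared by form and, in each role, for the gene of highest mean, smallest p and largest fold change. Alternatives were DESeq2 1.42.0 size factors and Wald test, upper-quartile factors, TMM without muscle genes, limma 3.58.1 voom, no filter, CPM of 1 or more in 3 libraries, robust=FALSE, an Xist-based sex covariate, leaving out the 2 low-Xist controls, and leaving out each library.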

Additional observations from a re-analysis of the deposited data

How the results depend on the processing

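The count of sarcomere genes called was 24 to 35 under the other scalings, filters and tests, against 27, and the count of other sarcomere and muscle structure genes 28 to 36, against 28, while 6.07% to 10.4% of all genes were called in either direction, against 7.01%. Leaving out a library gave 10 to 35 and 6 to 37 (1.81% to 9.45% of all genes). With the Xist-based sex covariate the counts were 2 and 0 (edgeR, 0.669% of all genes). Without the 2 low-Xist controls the members' median log2 fold change was 1.06. These fits share a contrast, because no deletion library has low Xist and the control level then comes from control 220. Of the 27 calls, 10 held with each library left out. The fold change of Ckm reversed to -0.146 without deletion 211, its values with a library left out running from -0.146 to 0.667; the cause was not tested. No other tested member changed sign in any setting run. No paired analysis was possible because the columns of the table carry none of the replicate numbers of the labels. Depth limits Myl2, Myoz1, Myl3 and Ckm, each under 1.5 CPM in the group means or below the filter, and with 3 libraries a group the exact test of a ratio cannot go below 0.1.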
